A study of Mus musculus with 2 samples.

Results

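Eosinophils, basophils and mast cells are granule-bearing blood cells, and 10 genes that mark them were followed in the embryonic mouse liver. The genes were Prg2, Prg3, Epx, Cpa3, Cma1, Mcpt8, Hdc, Fcer1a, Ms4a2 and Gata2, chosen by symbol and matched through the gene annotation to both gene tables, and all 10 of 10 were found among 43346 genes measured. The tissue was liver of C57BL/6J embryos at day 14, from pooled male and female littermates, with no treatment or genotype change named in the labels. Polyadenylated RNA longer than 200 nucleotides was read from 2 libraries, numbered as biological replicates 1 and 2 of 1 group, with 97174777 and 149348514 expected counts on genes. The labels give both libraries the same donor entry and do not say whether the pools came from separate litters, so p-values concern these samples only. Whole liver was sequenced, so fewer cells of a type and less RNA per cell cannot be told apart.

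Eosinophils store cationic proteins in their granules, among them major basic protein and a peroxidase. Mast cells and basophils store histamine and proteases, and release them when IgE bound to its receptor on their surface meets antigen. All these cells descend from progenitors that express the zinc-finger factor Gata2, and in mid-gestation the liver is a main home of such progenitors. Levels are given as TPM, a share of all transcripts in the library after scaling by length, so they can be set between genes.

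The liver expressed 7 of the 10 genes at 1 TPM or more in both libraries, and 1 gene stood far above the rest. Prg2 took 77.8% of the summed TPM of the 10 genes in replicate 1 and 78.4% in replicate 2. Across all 21474 protein-coding genes, 50.6% reached 1 TPM in both libraries. The median of the 10 genes was 1.91 TPM in replicate 1 and 1.93 TPM in replicate 2, beside 1.17 and 1.20 TPM for protein-coding genes. The order by mean level was Prg2, Prg3, Epx, Hdc, Cpa3, Gata2, Mcpt8, Ms4a2, Cma1 and Fcer1a. The deposited intervals of TPM, whose level is not given in the sources used here, overlapped in both libraries for 4 neighbours in that order: Prg3 and Epx, Epx and Hdc, Gata2 and Mcpt8, and Cma1 and Fcer1a. The other 5 neighbours were apart in both libraries. No member shared reads with another gene in the authors' estimate, since the posterior SD of its count was 0 in both libraries.

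**Figure D1:**
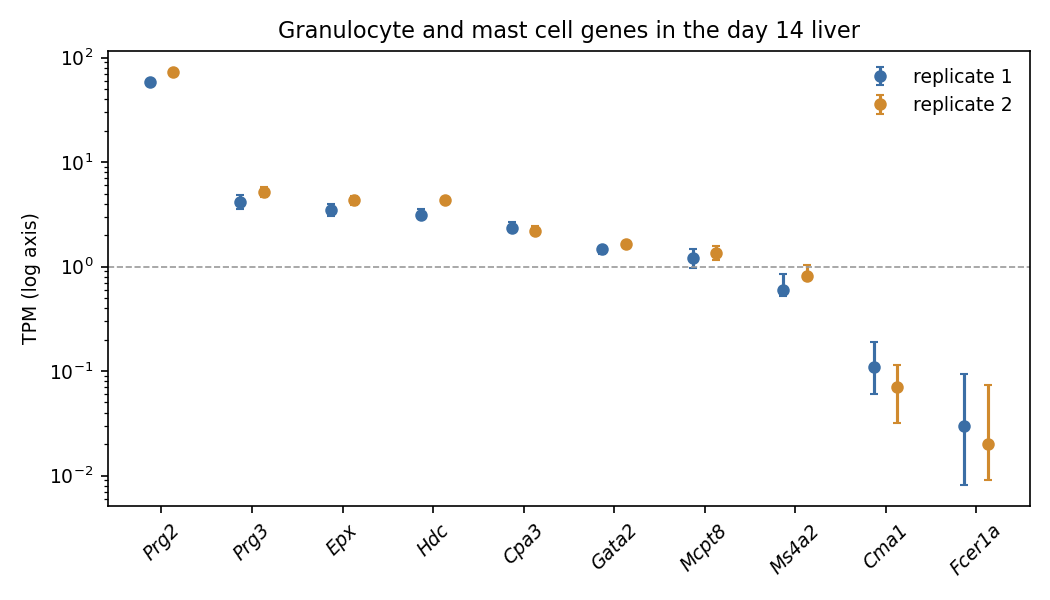
Level of the 10 genes in TPM on a log axis, for replicate 1 (blue) and replicate 2 (orange), with the deposited TPM intervals as bars and a dashed line at 1 TPM. Prg2 sits at 57.88 and 72.44 TPM, and Ms4a2, Cma1 and Fcer1a lie below the line in both libraries.

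Prg2 encodes the major basic protein of the eosinophil granule, a toxin for parasites. It had 57.88 TPM from 4457 counts in replicate 1 and 72.44 TPM from 8037 counts in replicate 2, or 65.2 ± 10.3 TPM (SD, n = 2). It lies on chromosome 2 from 84980461 to 84983632 on the plus strand (GRCm38, ENSMUSG00000027073.5). It ranked 971 among protein-coding genes by mean TPM, above 95.5% of them. The housekeeping genes around it were Ndufv2, a respiratory chain subunit, and Psmc1, a proteasome subunit, at 65.3 and 65.2 TPM above it. Rbm17, a splicing factor, and Vdac3, a mitochondrial channel, stood at 65.2 and 65.1 TPM below it. These 4 genes were picked as the nearest in rank to Prg2, so their like level follows from that choice.

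Prg3 encodes a close relative of major basic protein. It had 4.16 TPM from 254 counts in replicate 1 and 5.21 TPM from 487 counts in replicate 2 (4.69 ± 0.742 TPM). It starts 4582 bases beyond the end of Prg2 on the same strand (chromosome 2, 84988215 to 84993886, ENSMUSG00000027072.9). Prg2 exceeded it 13.9-fold in both libraries. Epx, the eosinophil peroxidase, had 3.49 TPM from 855 counts and 4.32 TPM from 1649 counts (3.91 ± 0.587 TPM, chromosome 11, 87864000 to 87875536, minus strand). Prg2 exceeded Epx 16.6-fold in replicate 1 and 16.8-fold in replicate 2. The TPM of all 3 eosinophil granule genes was higher in replicate 2, while the ratios between them hardly moved.

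Hdc, which makes histamine from histidine, was the highest of the 4 members grouped for mast cell and basophil granules and their contents. It had 3.12 TPM from 820 counts in replicate 1 and 4.32 TPM from 1699 counts in replicate 2 (3.72 ± 0.849 TPM, chromosome 2, 126593667 to 126619299, minus strand). Cpa3, the mast cell carboxypeptidase, had 2.35 TPM from 359 counts and 2.2 TPM from 485 counts (2.28 ± 0.106 TPM, chromosome 3, 20215620 to 20242181, minus strand). Mcpt8, a protease that marks mouse basophils, had 1.21 TPM from 96 counts and 1.36 TPM from 155 counts (1.29 ± 0.106 TPM, chromosome 14, 56082166 to 56085273, minus strand). Cma1, a chymase of connective tissue mast cells, had 0.11 TPM from 12 counts and 0.07 TPM from 10 counts (chromosome 14, 55941451 to 55944675, minus strand). The basophil protease Mcpt8 thus stood 11.0-fold above the mast cell chymase in replicate 1 and 19.4-fold above it in replicate 2. These folds rest on 12 and 10 counts of Cma1, so their size is loose. Cpa3, grouped here for mast cells and basophils alike, stood above Mcpt8 in each library. Hdc was level with Epx in replicate 2 (ratio 1.00) and 0.894 of it in replicate 1.

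The high-affinity IgE receptor is built of an alpha chain that binds IgE, a beta chain and a signalling gamma chain, and its chains differed widely in level. Fcer1a, the alpha chain, was covered by 2 counts in replicate 1 and 3 in replicate 2, listed as 0.03 and 0.02 TPM (chromosome 1, 173221284 to 173227214, minus strand). Both values are at or under 3 counts per library, a number that an observed 0 would still allow, so no fold is given against it. Ms4a2, the beta chain, had 0.6 TPM from 128 counts and 0.82 TPM from 228 counts (0.710 ± 0.156 TPM, chromosome 19, 11615523 to 11623719, minus strand). Fcer1g, the gamma chain, which other Fc receptors of macrophages and neutrophils also use, had 39.7 and 52.55 TPM. It exceeded Ms4a2 66.2-fold in replicate 1 and 64.1-fold in replicate 2. The level of the alpha chain thus rests on single fragments and carries no more than its order of size.

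Gata2, a zinc-finger factor of progenitors, mast cells and endothelium, had 1.46 TPM from 540 counts in replicate 1 and 1.66 TPM from 890 counts in replicate 2 (1.56 ± 0.141 TPM, chromosome 6, 88193891 to 88207032, plus strand). Its relative Gata1, which is also used by red cell precursors and megakaryocytes, had 91.86 and 110.45 TPM. The list of 15 transcription factors had 13 at 1 TPM or more in both libraries, led by Gata1, by its partner Zfpm1 at 53.96 and 65.66 TPM, and by Id2 at 32.92 and 37.73 TPM. Cebpe, a factor of granulocyte maturation, had 4.84 and 6.99 TPM, while Mitf, a factor of mast cells, had 0.29 and 0.31 TPM. The 2 factors below 1 TPM were Mitf and Gata3, and both were below it in each library.

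A second build of the same series, on mm9 with ENSEMBL genes, gave RPKM, a read count scaled by length and depth, for a pair of replicates left unnamed in the table. Prg2 again led, at 9.23 and 10.6 RPKM, and it exceeded Prg3 13.6-fold on the mean. The order behind it changed: Epx at 1.34 and 1.43 RPKM and Hdc at 1.20 and 1.48 RPKM stood above Prg3 at 0.686 and 0.775 RPKM. Gata2, at 0.541 and 0.711 RPKM, stood above Cpa3 at 0.329 and 0.475 RPKM. Prg2 exceeded Epx 7.14-fold and Hdc 7.42-fold on this scale, where the TPM tables gave 16.7-fold and 17.7-fold. Fcer1a and Cma1 were the lowest genes in both sources.

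The libraries were then set against each other, gene by gene, by an exact binomial test of each gene's counts given their sum, two-sided and Benjamini-Hochberg adjusted over 18572 genes. This compares these 2 libraries and not 2 conditions. Of the 9 members with at least 10 counts, 5 passed at 0.05. Over all genes tested the share was 40.3%, so the members' count is read against a high background. Higher in replicate 2 were 4 members, beside 19.9% of all genes. Lower in replicate 2 was 1 member, beside 20.4% of all genes. None of the members passed with a change of 1 or more on the log2 scale, which 5.89% of all genes did. Under the negative binomial exact test of edgeR, which takes its spread from the pair, 0 of 9 members passed, also at an unadjusted p under 0.05, beside 2.54% of all genes after adjustment. That spread counts the tested difference between the libraries as noise, so the 0 does not show that the members were alike. TPM itself was shifted between the libraries by a median log2 ratio of 0.15 over genes with at least 100 counts, so the ratios below use scaled counts, whose median was 0.01.

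Hdc had the largest ratio among the called members, a log2 ratio of 0.38 (95% counting interval 0.25 to 0.50, adjusted p = 5.38e-09, exact binomial test). Epx followed at 0.27 (0.15 to 0.39, adjusted p = 3.68e-05, exact binomial test). Prg3 stood at 0.26 (0.04 to 0.49) and Prg2 at 0.17 (0.12 to 0.23). Cpa3 went the other way, at -0.24 (-0.44 to -0.04). Prg3 and Cpa3 were close to the threshold, with adjusted p of 0.0480 and 0.0448 in the exact binomial test. The call on Cpa3 was lost with library totals for scaling (adjusted p = 0.128), and both calls were lost without the filter on low counts (adjusted p = 0.0580 for Prg3 and 0.0542 for Cpa3). Gata2 (0.05), Mcpt8 (0.02), Ms4a2 (0.16) and Cma1 (-0.94, interval -2.31 to 0.40) did not pass.

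**Figure D2:**
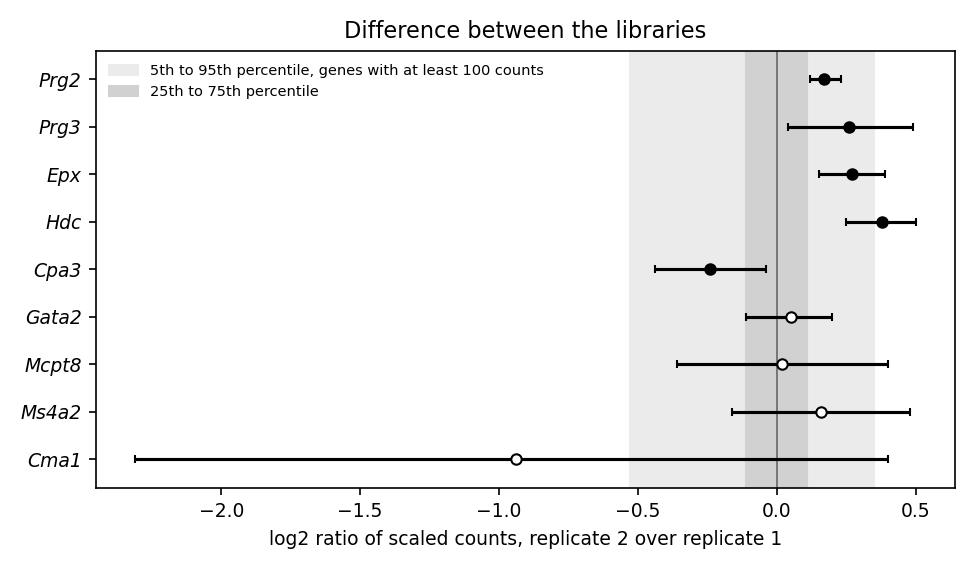
Log2 ratio of scaled counts, replicate 2 over replicate 1, with exact 95% counting intervals for the 9 members with at least 10 counts. Filled points passed the exact binomial test and open points did not. Grey bands span the middle of all genes with at least 100 counts, from -0.53 to 0.35 in the light band and from -0.11 to 0.11 in the dark one, and the points for Hdc (0.38) and for Cma1 (-0.94, from 22 counts) lie outside the light band, but within the range of -1.19 to 0.61 that the same percentiles span over all genes tested.

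Markers of other cells also differed between these libraries. Of 9 neutrophil genes, 8 were called higher in replicate 2 by the exact binomial test, beside 19.9% of all genes. Their list had a median log2 ratio of 0.42 and summed to 1308 and 1913 TPM. All 5 striated muscle genes were called lower in replicate 2, beside 20.4% of all genes, and summed to 42.9 and 1.75 TPM. Myh3, an embryonic myosin, fell from 4.47 to 0.08 TPM, Actc1 from 30.55 to 1.48 TPM and Myl1 from 5.39 to 0.16 TPM. Myh8 (log2 ratio -6.84) and Ttn (-5.69) moved alike. Of 5 skin genes, which summed to 3.86 and 0.930 TPM, 4 were called lower in replicate 2, beside the same 20.4% of all genes. These were Krt5 at 2.35 and 0.12 TPM, Krt15 at 0.47 and 0.07 TPM, Krt14 at 0.43 and 0.16 TPM, and Col7a1, whose scaled counts were lower (log2 ratio -0.48) while its TPM was 0.15 and 0.17. Krt10 did not pass, at 0.46 and 0.41 TPM. Under the negative binomial exact test of edgeR the muscle genes, Krt5 and Krt15 passed, and the neutrophil genes, Krt14, Col7a1 and Krt10 did not. None of these muscle and skin genes was at 0 in either library. The part of such cells in the members' ratios was not tested. The labelled tissue was present in both libraries: all 5 hepatocyte genes were above 1 TPM, led by Alb at 9112.09 and 10440.46 TPM, Afp and Apoa1, as were all 6 erythroid genes, led by Hbb-bs, Hba-a1 and Alas2.

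The exons of Prg2 and Prg3 were joined differently. In the mm9 junction list, which adds both replicates, no read was listed that skips the middle exon 3 of Prg2, while 93 reads joined exon 2 of Prg3 directly to exon 4. The sequences at these joins are shown because they separate the forms of Prg3 and show the matching joins in Prg2. Each is from the GENCODE transcript of GRCm38 on the plus strand, 30 bases on each side, with the downstream exon in capitals, and all the bases are coding in the full-length forms.
Prg3 exon 2 to exon 3: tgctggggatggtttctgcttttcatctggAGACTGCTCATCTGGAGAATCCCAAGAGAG
Prg3 exon 3 to exon 4: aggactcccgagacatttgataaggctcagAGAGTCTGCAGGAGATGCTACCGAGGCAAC
Prg3 exon 2 to exon 4: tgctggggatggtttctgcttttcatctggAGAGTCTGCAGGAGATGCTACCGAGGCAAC
Prg2 exon 2 to exon 3: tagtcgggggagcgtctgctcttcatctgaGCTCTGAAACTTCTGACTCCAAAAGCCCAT
Prg2 exon 3 to exon 4: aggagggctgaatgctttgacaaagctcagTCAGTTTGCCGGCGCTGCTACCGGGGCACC
The left part of the skipped form ends at position 84988792 and its right part starts at 84991402 on chromosome 2. Exon 3 of Prg3 spans 84989225 to 84989532, 308 bases, and that of Prg2 spans 84982006 to 84982316, 311 bases. Both are wholly coding, and neither length is a multiple of 3, so a transcript without the exon has another reading frame after it.

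Of the reads that leave exon 2 of Prg3, 93 went to exon 4 and 82 to exon 3, so 53.1% skipped exon 3 (95% exact Clopper-Pearson interval 45.5 to 60.7%). Of the reads that enter exon 4, 93 came from exon 2 and 121 from exon 3, so 43.5% skipped it (36.7 to 50.4%). The replicates of the junction list, which it numbers R1 and R2 without naming the libraries, gave 53.4% and 53.0% by the former measure and 41.3% and 44.6% by the latter. For Prg2, 0 of 1046 reads leaving exon 2 skipped exon 3, which allows a share of up to 0.287% (3 reads), and 0 of 3929 reads entering exon 4 did, which allows up to 0.0764%. These limits cover counting error only. Reads were uneven along both genes: the joins of Prg2 held 1496, 1046, 3929, 2672 and 2370 reads in transcript order, so a share from a single pair of joins carries that unevenness too.

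**Figure D3:**
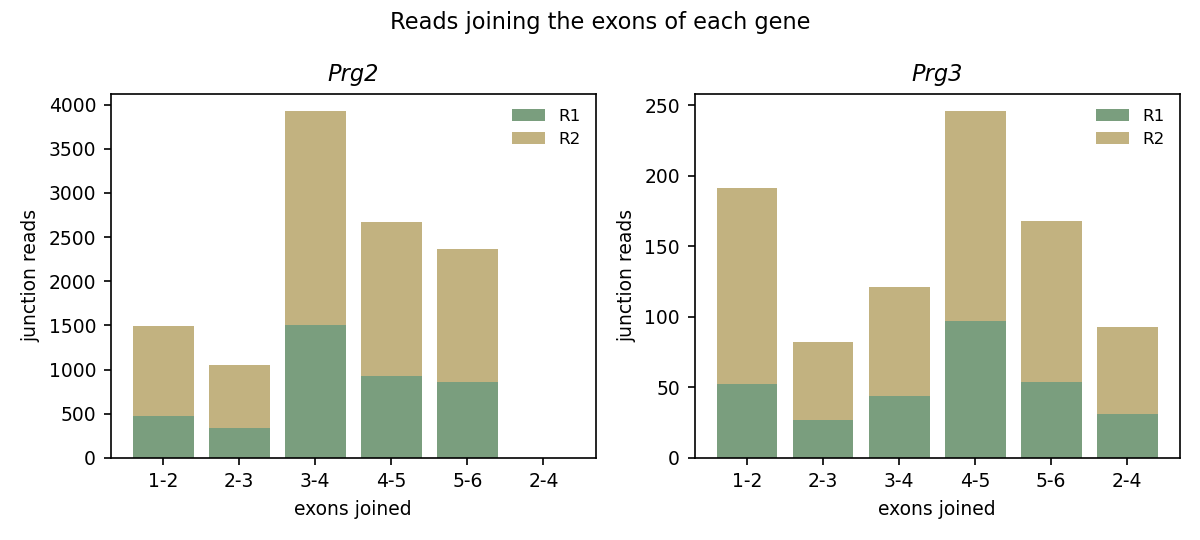
Junction reads that join the named exons of Prg2 (left) and Prg3 (right), with the list's replicates R1 and R2 stacked and separate vertical scales. The join from exon 2 to exon 4 has 0 reads in Prg2 and 93 in Prg3, where the joins through exon 3 have 82 and 121.

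The transcript tables of the mm10 build also divided Prg3 between forms with and without exon 3. The coding transcript, with 949 bases, took 48.7% of the gene's TPM in replicate 1 and 55.5% in replicate 2. A processed transcript of 481 bases without exon 3 took 51.3% and 44.5%. By expected counts, which do not correct for length, the shorter transcript took 27.5% and 22.3%. As annotated it also begins exon 2 further downstream than the coding transcript does. Of the 191 reads from exon 1 to either of these starts of exon 2, 0 used the downstream one, which allows up to 1.57%. The transcripts of Prg2 and Prg3 share 64.5% of aligned bases, and exon 3 shares 61.9% over 302 aligned bases.

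Gata2 has a distal and a proximal first exon, both noncoding, that join the same exon 2. In the junction list 9 reads joined the distal exon and 88 the proximal one, so the distal exon held 9.28% (95% exact interval 4.33 to 16.9%). Those 9 reads were all in R2, with 0 of 27 in R1. The transcript tables gave the distal form 31.8% of the gene's TPM in replicate 1 and 26.6% in replicate 2, above the interval from the junction reads. The forms differ only in that exon, of 110 bases in the distal and 218 bases in the proximal form.

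For most of the other genes a single form held most of the signal. The coding transcript of Hdc took 94.3% and 96.5% of its gene's TPM, and in the junction list 4 reads left an annotated exon further upstream, whose transcripts share the next donor, with 115 reads, with the coding one. The coding transcript of Epx took 75.5% and 83.0%, with a processed transcript of 658 bases taking the rest. By expected counts that processed transcript took 5.48% and 3.51%. In the junction list its own intron held 2 reads, all in R2, beside 153 on the coding intron that joins the same next exon start. The longest form of Ms4a2, with 2391 bases, took 70.9% and 55.5%. The contig over the end of Ms4a2 (mm9, chromosome 19, 11690007 to 11692163) had a level of 0.633, where the other 7 contigs of the gene lay between 0.0270 and 0.219. Cpa3, Mcpt8, Cma1 and Prg2 each had a single form at 100% in both libraries. The few counts of Fcer1a went to 1 coding form in replicate 1 and to the other in replicate 2, each at 100%.

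Spliced reads were found over all 10 genes, on 71 of 76 annotated introns. Prg2 held 11513 junction reads, Epx 1760, Hdc 1731, Cpa3 967, Prg3 901, Gata2 476, Mcpt8 225 and Ms4a2 71. Cma1 held 16 reads over its 4 introns, and Fcer1a 5 reads over its 4 introns. Both lowest genes thus had spliced reads on each of their introns, with at least 2 reads for Cma1 and at least 1 read for Fcer1a. Contigs on the sense strand covered 100% of the length of Prg2 at a level of 17.9 and 11.0% of that of Fcer1a at 0.0421.

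The other eosinophil lists held both expressed genes and genes near 0, and which cells of the liver made them was not tested. Of 7 granule ribonucleases measured, 3 were above 1 TPM in both libraries: Ear6 at 23.07 and 24.55 TPM, Ear2 at 22.78 and 24.41 TPM and Ear1 at 15.48 and 17.12 TPM. These are close copies of each other, and the authors' posterior SD of their counts was at most 0.160 counts in either library. Ear10, Ear14, Rnase2a and Rnase2b were below 0.1 TPM, and the median of the list was 0.0300 TPM in replicate 1. None of the 3 tested ribonucleases passed the test between the libraries. Between the libraries, 6 of the 8 eosinophil surface genes were called higher in replicate 2 by the exact binomial test, beside 19.9% of all genes, and 0 were called lower. Of these 8 surface genes, 6 reached 1 TPM in both libraries, led on the mean by Adgre1, the F4/80 antigen shared with macrophages, at 7.43 and 11.16 TPM. Csf2ra, a chain of the receptor for granulocyte-macrophage colony-stimulating factor, had 8.0 and 9.85 TPM, and Csf2rb, the beta chain it shares with the receptors for interleukins 3 and 5, had 3.08 and 3.97 TPM. Also above 1 TPM in both libraries were Cd300a at 1.77 and 2.57 TPM, Siglecf at 1.77 and 2.41 TPM, and Csf2rb2 at 1.34 and 1.75 TPM. Il5ra, the interleukin 5 receptor chain, and Ccr3, the eotaxin receptor, were below 0.1 TPM.

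The mast cell proteases were low. Of 11 proteases other than the members, 1 reached 1 TPM in both libraries, Ctsg at 26.65 and 45.33 TPM, a cathepsin that neutrophil precursors also make. Prss34, a basophil protease, had 0.65 and 0.62 TPM, and Tpsg1, a membrane tryptase, had 0.26 and 0.66 TPM (log2 ratio 1.18, adjusted p = 0.000308 in the exact binomial test and 0.457 in the negative binomial exact test of edgeR). Mcpt1, Mcpt2, Mcpt4, Mcpt9, Cma2, Tpsab1 and Gzmb were below 0.1 TPM, of which Mcpt4, Mcpt9 and Cma2 had 0 counts in both libraries. The list's medians were 0.0200 and 0.05 TPM.

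Surface and mediator genes shared with other blood cells were higher. Of 9 surface genes, 4 reached 1 TPM: Fcer1g, Kit, the receptor for stem cell factor, at 7.96 and 8.29 TPM, Il1rl1, the interleukin 33 receptor, at 3.17 and 4.0 TPM, and Il3ra. Mrgprb1 and Mrgprb2, receptors of tissue mast cells, had 0 counts in both libraries, and Ptgdr2 was below 0.1 TPM. Of 9 genes for granule content and mediators, 6 reached 1 TPM, led by Srgn, the granule proteoglycan core, at 23.39 and 32.07 TPM, Alox5ap, a helper of leukotriene synthesis, at 20.11 and 27.72 TPM, and Ndst2, which sulfates heparin, at 10.17 and 13.18 TPM. In this list 6 of 9 genes were called higher in replicate 2 by the exact binomial test, beside 19.9% of all genes, and 0 were called lower. Of 10 cytokines, 2 reached 1 TPM: Ccl24, an eotaxin, at 4.76 and 5.41 TPM, and Kitl, which encodes stem cell factor, at 4.13 and 4.72 TPM. Il33 came next at 0.48 and 0.57 TPM. Il5, Il3, Csf2, Il13 and Tslp were below 0.1 TPM. Ccl11, another eotaxin, had 18 counts in replicate 1 and 0 in replicate 2 and passed both tests (adjusted p = 0.00123 in the negative binomial exact test of edgeR), and Tslp had 9 and 2 counts (log2 ratio -2.85, adjusted p = 0.0133 in the exact binomial test and 0.317 in that of edgeR).

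**Figure D4:**
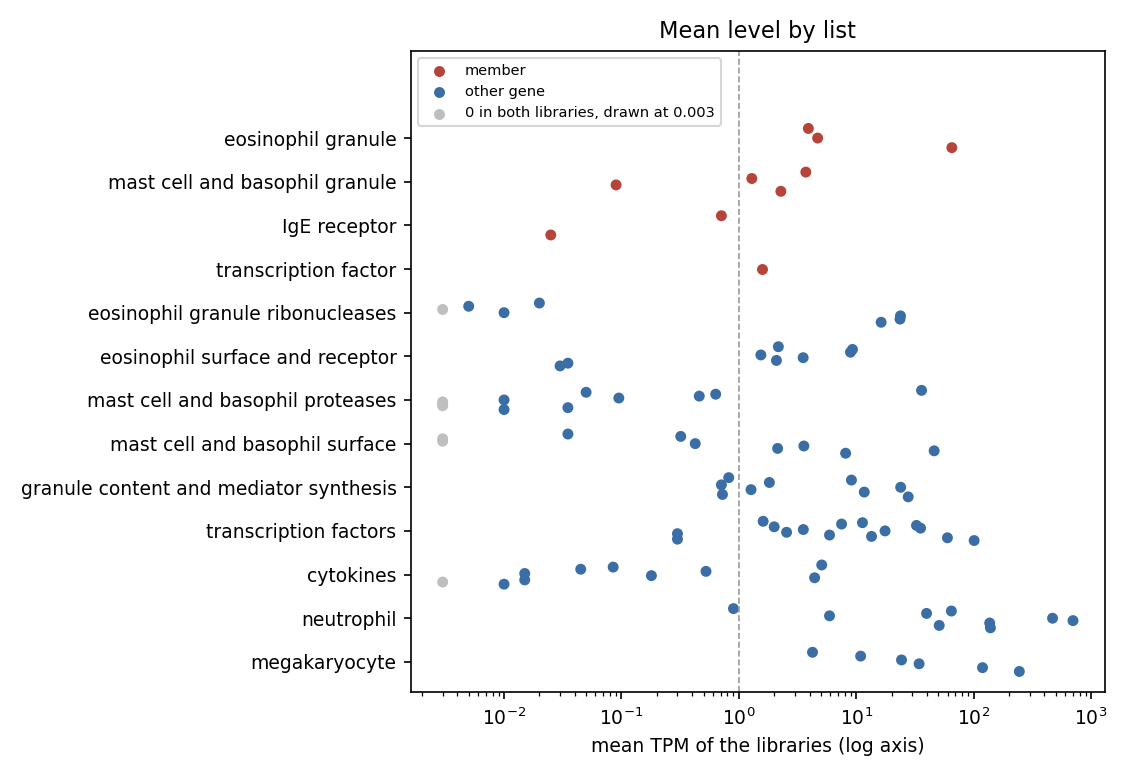
Mean TPM of the libraries on a log axis for each gene of the members' groups (red) and of other lists (blue), with genes at 0 counts in both libraries in grey at the left edge and a dashed line at 1 TPM. Ear1, Ear2 and Ear6 and the protease Ctsg stand above the line while the rest of their lists lie below it, and Prg2 lies in the range of the neutrophil genes.

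Prg2 was set beside granule genes of other blood cells in the same libraries. The neutrophil list reached 47.4 TPM at the median in replicate 1 and 81.8 TPM in replicate 2. S100a8, an alarmin, led it at 561.18 and 842.5 TPM, with S100a9 at 386.76 and 553.89 TPM and Mpo, the neutrophil peroxidase, at 124.59 and 153.35 TPM. Prg2 stood at 0.465 of Mpo in replicate 1 and at 0.472 in replicate 2. It exceeded Elane, neutrophil elastase, 1.52-fold and 1.14-fold. Among the 6 megakaryocyte genes, Pf4 led with 235.6 and 254.06 TPM, with Ppbp and Itga2b next, and Prg2 stood at 0.246 and 0.285 of Pf4. The endothelial list, whose cells also use Gata2, had 7 of 7 genes above 1 TPM with medians of 9.18 and 9.31 TPM, led by Egfl7, Lyve1 and Stab2. The stem and progenitor list had 5 of 7, with medians of 4.01 and 4.47 TPM, led by Myb, Cd34 and Meis1. Gata2 stood below the median of both lists in each library.

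The sequence upstream of each start was searched for the word AGATAA or TGATAA, forms of the core bound by GATA factors. The search covered both strands over the 250 bases before the RefSeq start (GRCm38.p6), and forms of the core with other letters were not searched. Windows were matched for 9 of the 10 genes, all but Prg2, and there were 10 in all, since Gata2 has one at each first exon. The word was found in 4 of 10 windows, and in 16.6% of 32851 windows of all genes. These 4 are printed because they show which of the genes hold the word and where, with each match in capitals, written as TTATCT or TTATCA where it lies on the other strand.
Prg3, chr2:84987965-84988214, plus strand: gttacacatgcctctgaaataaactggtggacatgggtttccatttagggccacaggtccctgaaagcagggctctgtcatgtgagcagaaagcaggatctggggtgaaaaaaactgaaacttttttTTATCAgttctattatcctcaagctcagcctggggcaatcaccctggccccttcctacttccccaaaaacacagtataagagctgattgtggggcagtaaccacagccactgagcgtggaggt
Cpa3, chr3:20242182-20242431, minus strand: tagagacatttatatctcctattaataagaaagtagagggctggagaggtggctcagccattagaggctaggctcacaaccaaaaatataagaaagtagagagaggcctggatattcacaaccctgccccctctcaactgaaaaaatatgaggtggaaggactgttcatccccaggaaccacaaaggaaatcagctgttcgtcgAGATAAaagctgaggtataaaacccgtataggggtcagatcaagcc
Fcer1a, chr1:173227230-173227479, minus strand: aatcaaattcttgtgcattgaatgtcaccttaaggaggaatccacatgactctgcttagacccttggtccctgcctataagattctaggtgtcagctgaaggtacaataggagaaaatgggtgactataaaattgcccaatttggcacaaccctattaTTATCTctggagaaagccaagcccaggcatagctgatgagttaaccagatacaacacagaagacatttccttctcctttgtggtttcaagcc
Ms4a2, chr19:11623720-11623969, minus strand: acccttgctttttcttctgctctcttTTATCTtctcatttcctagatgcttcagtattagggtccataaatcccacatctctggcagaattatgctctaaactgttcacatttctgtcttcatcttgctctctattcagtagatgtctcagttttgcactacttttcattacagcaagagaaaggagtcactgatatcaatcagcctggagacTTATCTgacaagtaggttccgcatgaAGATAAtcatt
Ms4a2 held 3 matches, starting at positions -224, -37 and -11 from the start, and none of the matches overlapped another. Cpa3 held 1 at position -46, Fcer1a 1 at -92 and Prg3 1 at -123. The windows of Epx, Hdc, Mcpt8, Cma1 and Gata2 held neither AGATAA nor TGATAA, which does not cover the forms that were not searched. Genes with the word ranged from Fcer1a, at 0.03 and 0.02 TPM, to Prg3, at 4.16 and 5.21 TPM. TTNNGNAA, a core of C/EBP factors, was found in 3 of 10 windows, those of Fcer1a, Prg3 and the proximal exon of Gata2, and in 36.8% of all windows. A match describes letters only and is not a site shown to be bound.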

How the data were processed

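Polyadenylated RNA was sequenced from 2 libraries of day 14 liver, 1 group, as stranded paired reads of 101 nucleotides, per the labels. The expected counts were made by the authors on mm10 with GENCODE M4, per the deposited notes of the samples, and the sources used here name no aligner or quantifier. TPM and FPKM, both scaled by effective length, were deposited by the authors beside them. The transcript percent values are the authors' share of each gene's TPM. Per the file headers, the score values are bounds of an interval of TPM and the posterior SD of a gene's count. On mm9 the authors deposited junction counts, in whole reads, and a contig signal, each made for both replicates together, and RPKM per ENSEMBL gene. The junction list goes down to 1 read.

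Spike-ins and features without a mouse gene identifier were left out. Symbols and GRCm38 positions came from GENCODE M21, which matched 42462 of 43346 genes. Expected counts were rounded for tests. Genes with at least 10 counts in total were compared by an exact binomial test of their counts given the sum (two-sided). It used TMM effective library sizes from edgeR 4.0.16 (R 4.3.3) and was adjusted by Benjamini-Hochberg at 0.05. The test was tried on simulated data with counting error alone, which cannot show how it behaves under further spread between libraries. Log2 ratios are replicate 2 over replicate 1. Shares carry 95% exact Clopper-Pearson intervals (scipy 1.17.1). Exon identity comes from global alignment in Biopython 1.88 with match 2, mismatch -1, gap opening -5 and extension -1. Alternatives were DESeq2 1.42.0 size factors, library totals, other filters, pseudocounts, thresholds and units, the mm9 tables, junctions read in both replicates, a negative binomial exact test of edgeR, and leaving out either replicate. The members and lists were chosen with earlier results of these data known. The text names all members, the 3 highest genes of each list, list genes below 0.1 TPM in both libraries (by name), list genes called with a change of 1 or more on the log2 scale, and the 2 protein-coding genes next above and next below Prg2. A few other list genes (Cebpe, Mitf, Gata3, Elane, Col7a1, Il3ra, Siglecf, Cd300a, Csf2rb2) were named after their values were seen.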

Additional observations from a re-analysis of the deposited data

Results flagged for a closer look

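Several junctions that the ENSEMBL annotation does not hold lay on the sense strand of the members or just beyond them, with more than 3 reads in all and reads in both replicates of the mm9 list. They were outside the annotated introns that the comparisons use. In Prg2 on chromosome 2, the intron from 84820831 to 84821482 held 21 reads (9 in R1 and 12 in R2), and that from 84820658 to 84821069 held 9 reads (4 and 5). The intron from 84820658 to 84821397 held 8 reads (7 and 1), and that from 84821557 to 84822162 held 4 reads (3 and 1). For comparison, the annotated intron from 84820658 to 84821482 held 1496 reads. In Prg3 the intron from 84828459 to 84828818 held 9 reads (1 and 8), beside 191 on the annotated intron that ends 3 bases earlier.

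Beyond the end of Prg3, and within no ENSEMBL gene of that strand, the intron from 84836269 to 84837040 held 9 reads (4 and 5) and that from 84834323 to 84836193 held 4 reads (1 and 3). In Cpa3 on chromosome 3 the intron from 20115892 to 20121985, which leaves out an annotated exon, held 5 reads (1 and 4). In Ms4a2 on chromosome 19 the intron from 11693274 to 11694106 held 5 reads (3 and 2). In Gata2 on chromosome 6 the intron from 88152329 to 88152412, of 84 bases, held 4 reads (1 and 3).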

How the results depend on the processing

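No paired analysis was possible because the series holds 1 group, so no replicate number is shared between groups. The 5 members called between the libraries stayed 5 with DESeq2 size factors and with at least 100 counts, and were 4 with library totals, 3 without a filter and 0 under the negative binomial exact test of edgeR. In the same order of settings, the share of all tested genes that was called was 40.3%, 47.0%, 45.3%, 32.3% and 2.54%, so the background moved too. The members tested were 9, but 8 with at least 100 counts and 10 without a filter. Leaving out a replicate leaves no test between the libraries. No log2 ratio of the 9 tested members changed sign under another scaling, pseudocount or test on the mm10 tables. The mm9 replicates are unnamed and were not part of this. There Prg2 (9.23 and 10.6 RPKM) and Cpa3 (0.329 and 0.475 RPKM) moved the same way, where their scaled counts moved in opposite ways. Cma1 (0.0108 and 0.0259 RPKM) moved as Cpa3 did. The 7 members at or above 1 TPM stayed 7 in either library alone and with FPKM, and were 8 at 0.5 TPM and 8 at 0.1 TPM. Prg2 exceeded Prg3 13.9-fold in TPM, 17.0-fold in expected counts and 13.6-fold in mm9 RPKM. It exceeded the sum of the other members 3.56-fold in TPM, 1.44-fold in expected counts and 2.01-fold in mm9 RPKM. All 10 members had lower values in mm9 RPKM than in TPM, the cause of which was not tested. Of 70 junctions inside the members that are not annotated, 12 had reads in both replicates. The median of the eosinophil ribonuclease list rests on genes near 0 and was 23.6 TPM over its genes with at least 10 counts. Of 5 striated muscle genes 1 reached 1 TPM in both libraries and 4 did in replicate 1 alone. Depth limits what can be said of Fcer1a and Cma1.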

Other observations

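Signal on the plus strand continued past the annotated 3′ end of Prg3, and whether it belongs to Prg3 was not tested. A plus strand contig of the mm9 list ran from 84832252 to 84838063 on chromosome 2 at a level of 0.473, which is 4020 bases past the annotated end of Prg3, and a further contig of 356 bases followed at 0.0680. The unannotated junctions beyond Prg3 lie within the same stretch.

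Hdc, whose gene lies on the minus strand, was overlapped by 10 plus strand contigs that covered 7731 of its bases, with a highest level of 0.486. Of these, 8 stood between 126433520 and 126439499 on chromosome 2 (mm9) and covered 5254 bases, at levels from 0.0490 to 0.127. The contig over the first exon of the coding transcript had a level of 1.95, and the contig upstream of it had 0.0680. Prg2, Prg3, Epx, Mcpt8, Cma1 and Fcer1a had no contig on the opposite strand. Cpa3 had 4 such contigs, Gata2 6 and Ms4a2 2.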
